A study of Quercus robur with 165 samples.

Results

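*CERD* is the gene that the authors call neutral ceramidase, identifier MSTRG.1646 in their assembly of the *Q. robur* (pedunculate oak) root transcriptome. It was chosen as a single gene, by its identifier in the list of genes for which RT-qPCR primers were designed, and it is 1 of the 35397 genes with values in each library. The series holds RNA-seq libraries of seedling roots in 55 groups of 3 libraries each, 25 groups (75 libraries) in Dataset 1 and 30 groups (90 libraries) in Dataset 2. Its design asks how gene expression differs between taproots and lateral roots, between taproot zones, and with taproot length, thickness, dieback, cultivation and sowing date. All groups were seedlings raised from acorns in the same peat and perlite medium in a foil greenhouse, and the sources name no genotype, transgene or chemical treatment that separates them. The taproot was sampled as the meristematic zone, with its dividing cells, and in Dataset 2 also as the elongation zone, where the cells lengthen. Roots were classed as short, medium or long, as normal or thick, and as active or dying. They grew in containers, where a taproot that reaches the bottom is air-pruned, or in rhizotrons, which are clear-walled chambers. Dataset 1 held seedlings harvested at 7 or 8 weeks after spring sowing or at 8 weeks after summer sowing. Dataset 2 was raised a year later from stored acorns of the same lot, and it also held transplanted seedlings, which had spent a year in a container and were then grown in a rhizotron, so that transplanting and age cannot be told apart. The sources do not say whether the length and vitality of a lateral-root library describe the lateral roots themselves or the taproot of the same seedling. For long normal container taproots at 7 weeks the code says long and the description short, and for long dying transplanted taproot meristems the code says dying and the description does not. The codes were followed for both, and each comparison they enter was run again without the pair concerned.

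Neutral ceramidase splits ceramide, a membrane sphingolipid, into sphingosine and a fatty acid. In plants the balance between ceramides and sphingoid bases is linked to programmed cell death and to responses to stress, and the enzyme has been studied in Arabidopsis and rice. Ceramide is also the backbone from which the complex sphingolipids of membranes are built. The primers designed for *CERD* are shown because they are the sequences of the gene that the sources used here pair with its name and identifier. Each is 20 bases long and written 5′ to 3′ in lower case, with a GC content of 45% for the forward and 50% for the reverse primer.
CERD forward: ttgctgctggaacaacagat
CERD reverse: ttcccttgtcatctccttgc
No RT-qPCR value was used, the position of *CERD* in the genome was not analysed here, and whether a close copy of the gene shares its reads was not tested.

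Libraries held 20037169 to 24793325 expected counts in Dataset 1 and 22882800 to 33341476 in Dataset 2, where an expected count is the estimated number of read pairs of a gene. *CERD* received 1226 to 7054 of them in Dataset 1 and 2189 to 10016 in Dataset 2, so that counting error was small against the differences described. Of the pairs of libraries within a group, 79 were near-identical, 24 of 75 in Dataset 1 and 55 of 90 in Dataset 2. Their coefficient of variation beyond counting noise was under 0.05, against a median of 0.053 over all within-group pairs and 0.267 between groups. Their differences exceeded counting noise, with a variance at least 1.45 times that of counting alone, so they were kept as separate libraries. Each of the 33 comparisons was repeated with them merged, but fits that left out groups or pairs were not. P-values measure the spread between libraries, which may be technical in part. Libraries 2 and 3 of long normal rhizotron taproots and of long dying container taproots, both at 8 weeks, were also near-identical across the groups (3 pairs of libraries). *PIN2*, an auxin efflux carrier known from Arabidopsis root tips, served as a check of the labelled part. Its group means in Dataset 2 had a median of 1.26 TPM (a level normalised to transcript length and library) in elongation zones, 23.0 TPM in lateral roots and 32.9 TPM in meristematic zones. The lateral-root groups there ran from 3.01 to 32.1 TPM, up to about the meristem median. In Dataset 1 the medians were 8.49 TPM in lateral roots and 40.8 TPM in meristematic zones. Meristem groups lowest in *PIN2* were those of medium thick dying rhizotron taproots (mean 0.093 TPM), long dying container taproots at 7 weeks (1.92 TPM), long dying container taproots of Dataset 2 (6.93 TPM) and medium thick dying transplanted taproots (10.1 TPM). Next came medium dying rhizotron taproots at 8 weeks (12.6 TPM), summer-sown long thick rhizotron taproots (14.2 TPM) and medium thick container taproots at 8 weeks (16.3 TPM). Single meristem libraries were also low, with 6.99 and 7.27 TPM in libraries 1 and 3 of medium dying rhizotron taproots at 8 weeks and 6.18 TPM in library 1 of long dying container taproots at 8 weeks. Libraries 2 and 3 of the latter group had 70.1 and 72.9 TPM, beside 65.7 and 66.5 TPM in the libraries of normal rhizotron taproots to which they were near-identical. The libraries of that label were thus split, with library 1 nearer to the other long dying container meristems (means of 1.92 and 6.93 TPM).

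*CERD* was expressed in every library, between 27.9 and 149 TPM. With a mean of 7.02 log2 CPM (counts scaled by library size, here with TMM factors, and not by length) in Dataset 1 and 7.55 in Dataset 2, it lay above 95.5% and 97.2% of the genes tested. The group means spanned 3.66-fold in Dataset 1 and 3.77-fold in Dataset 2. At the top of Dataset 1 stood the lateral roots of long summer-sown container seedlings with 140.2, 142 and 144 TPM in the 3 libraries (142 ± 1.78, mean ± SD, n = 3 in this and the following values of a group). No library of any other Dataset 1 group reached that range. At the bottom were the meristematic zones of short container taproots at 7 weeks, with 39.4, 45.9 and 31.0 TPM (38.8 ± 7.47). In Dataset 2 the elongation zones of medium normal rhizotron taproots led with 141, 141 and 137 TPM (139.5 ± 2.46), and the meristematic zones of short container taproots were again last with 39.3, 41.7 and 30.1 TPM (37.0 ± 6.10). Most groups formed a continuum: 23 of the 24 neighbours in the order of Dataset 1 and 25 of the 29 in Dataset 2 overlapped with the next group. Neighbours were apart in Dataset 2 between the 2 highest elongation-zone groups and between dying and normal long container taproots. They were also apart between normal and thick dying medium rhizotron taproots, and above the short container taproots. Other groups with a wider range reached across the step between the 2 highest elongation-zone groups and that between the medium rhizotron taproots. Libraries of a group differed by a median coefficient of variation of 12.2% in Dataset 1 and 3.18% in Dataset 2. The SD of the group means was 0.40 on the log2 CPM scale in Dataset 1 and 0.36 in Dataset 2, smaller than in most genes, since 29.3% and 24.7% of the genes tested had a smaller one. Group alone accounted for 72.1% of the variance of log2 *CERD* in Dataset 1 and 94.6% in Dataset 2 (adjusted R-squared), and root part alone for 38.3% and 38.7%. Length alone accounted for 16.3% and 7.87%, harvest for 9.60% in Dataset 1, morphology and vitality for 2.51% and 4.60%, and cultivation for -0.69% and 4.43%. These shares overlap, because the classes are not balanced over the groups.

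**Figure D1:**
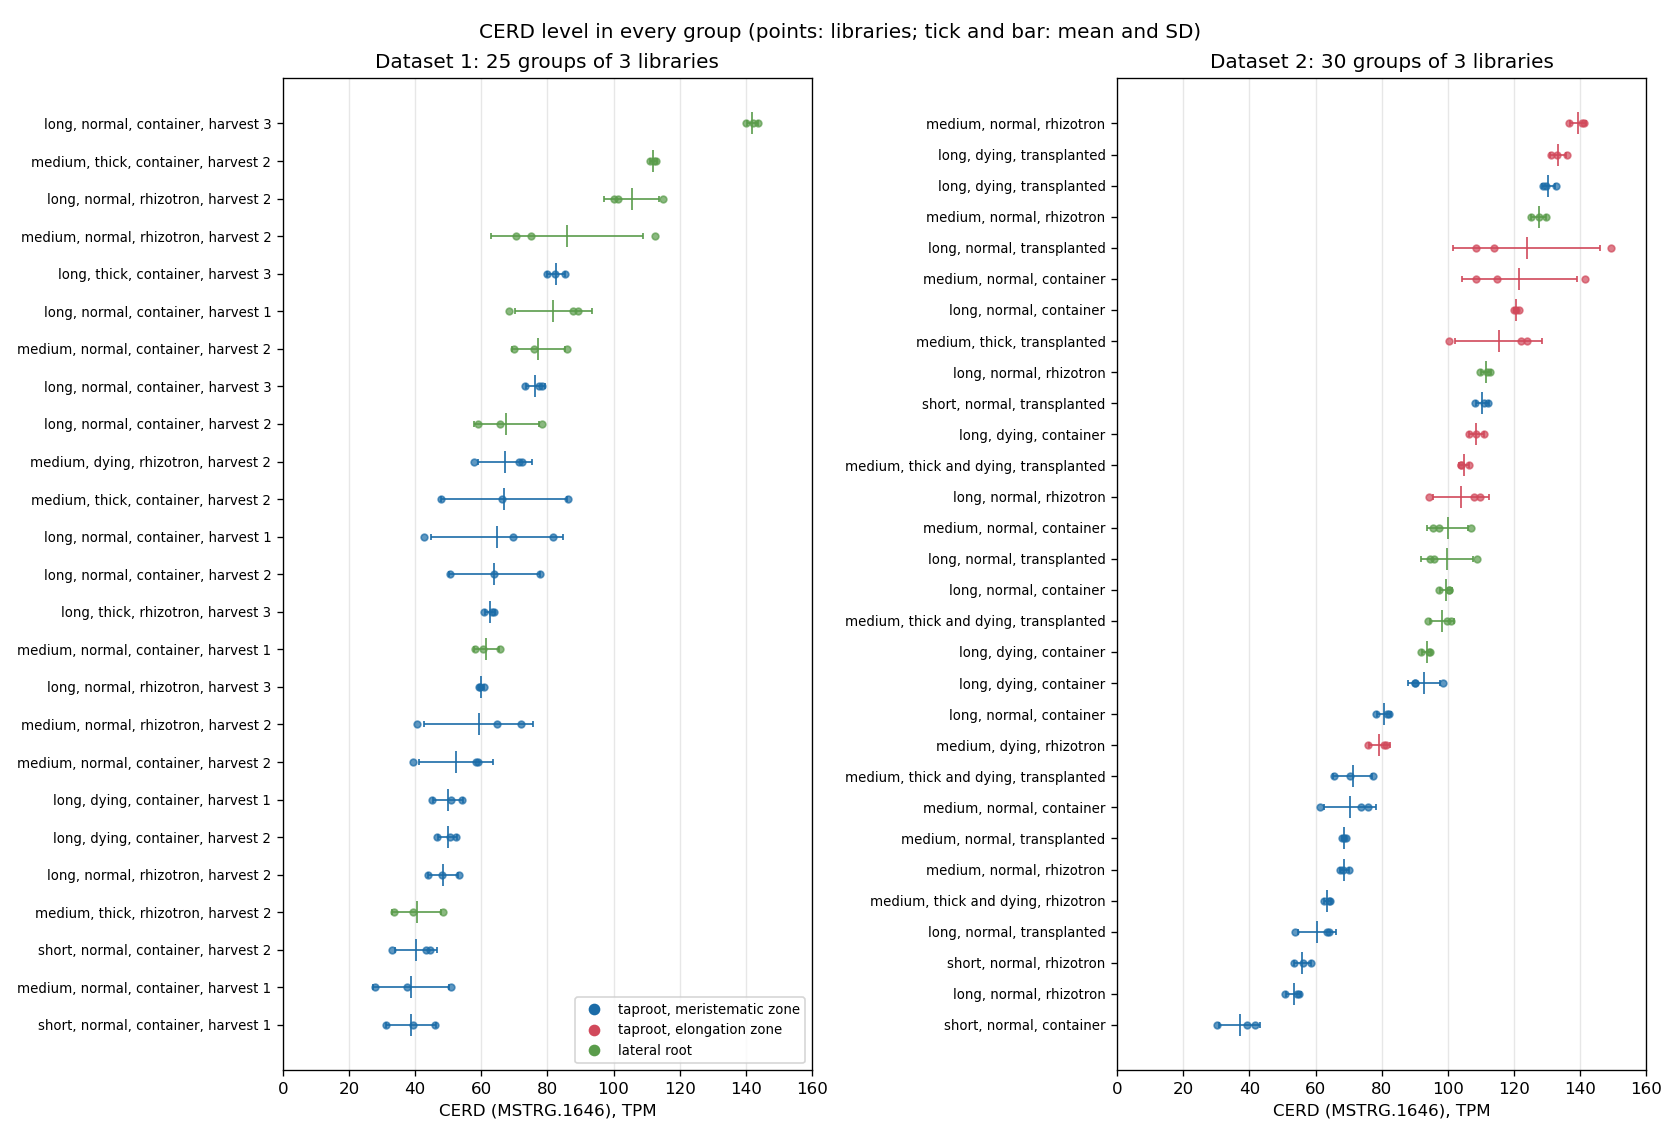
Level of *CERD* in TPM (horizontal axis, from 0) in the 25 groups of Dataset 1 and the 30 groups of Dataset 2, ordered by mean; points are libraries, ticks and bars the mean and SD (n = 3), colours the root part. Group means ran from 38.8 to 142 TPM in Dataset 1 and from 37.0 to 139.5 TPM in Dataset 2, with meristematic zones in most of the lower places.

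In matched groups of Dataset 2, *CERD* was lowest in the meristematic zone of the taproot and highest in its elongation zone, with lateral roots between them. Both taproot zones were set against each other in 8 matched pairs of groups of Dataset 2, which share length, morphology, vitality and cultivation. The level was 119.6 ± 15.3 TPM in elongation and 78.5 ± 23.4 TPM in meristematic zones (mean ± SD over 24 libraries each). By edgeR's quasi-likelihood test with Benjamini-Hochberg adjustment over all genes, the method of every adjusted p of a fold change given here, *CERD* was higher in the elongation zone (log2 fold change 0.48, SE 0.055, adjusted p = 2.8e-10). Of the 27117 genes tested, 65.3% passed, so that a difference between the zones was common among genes. In these extracts of whole tissue, fewer cells of a type and less RNA per cell cannot be told apart. Among long normal taproots, container meristems had 78.2, 82.2 and 81.7 TPM and their elongation zones 121, 121 and 120.03 TPM. Rhizotron meristems had 50.9, 54.5 and 55.05 TPM against 94.2, 109.7 and 108 TPM in elongation zones. Transplanted meristems had 64.0, 63.5 and 53.7 TPM, and their elongation zones 108, 149 and 114 TPM, the second library of which was the highest of the series. The ranges of both zones were apart in all 3 cultivations, at 1.50-fold, 1.94-fold and 2.05-fold. Medium normal container meristems had 61.3, 73.8 and 75.8 TPM and elongation zones 115, 109 and 141 TPM, a ratio of 1.73. In rhizotrons the values of medium normal roots were 67.5, 70.2 and 68.2 TPM in meristems and those of the top group in elongation zones, a ratio of 2.03. Dying and thick dying roots gave smaller ratios in TPM than these. In long dying container taproots the meristems held 98.5, 90.0 and 90.2 TPM and the elongation zones 109, 106 and 111 TPM, 1.17-fold higher and still apart. Medium thick dying transplanted taproots had 65.6, 70.5 and 77.5 TPM in meristems and 104, 107 and 104 TPM in elongation zones, a ratio of 1.47. Only in long dying transplanted taproots, among these 8 pairs, did the zones overlap in TPM, with 129.7, 129 and 133 TPM in meristems and 136, 131 and 133 TPM in elongation zones. In log2 CPM their elongation zones were higher by 0.040, without overlap. The meristems of that group are those with conflicting labels, and without the pair the log2 fold change was 0.55 (adjusted p = 1.0e-10). With near-identical libraries merged it was 0.57 (adjusted p = 1.9e-06).

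**Figure D2:**
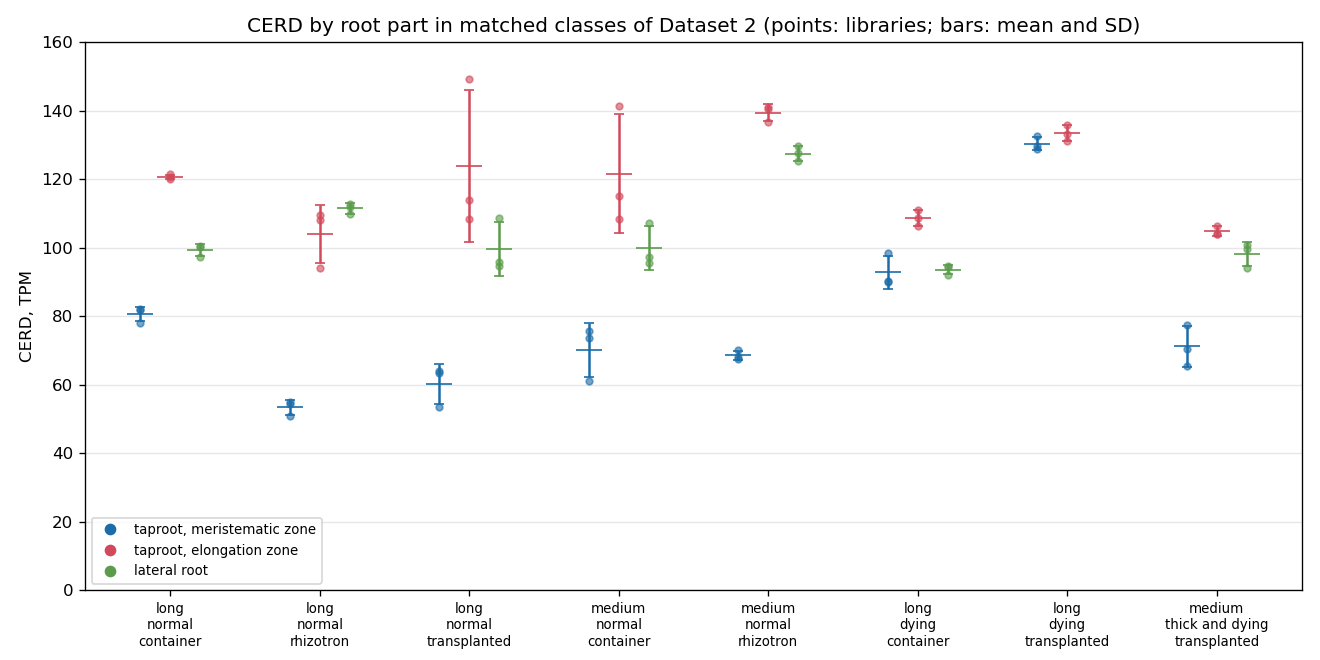
Level of *CERD* in TPM (vertical axis, from 0) by root part in 8 matched classes of Dataset 2; points are libraries, bars the mean and SD (n = 3). Elongation zones lie above meristematic zones without overlap in 7 of the 8 classes, at 1.17-fold to 2.05-fold, and both overlap in long dying transplanted taproots.

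Lateral roots were also higher in *CERD* than taproot meristems, in both datasets. Lateral roots of Dataset 2 reached 104 ± 11.6 TPM, against 71.1 ± 12.9 TPM for meristems (mean ± SD, 21 libraries each, log2 fold change 0.29, SE 0.058, adjusted p = 4.3e-05, 67.1% of 27404 genes passed). Long normal lateral roots had 100.3, 97.3 and 101 TPM in containers, 109.8, 112 and 113 TPM in rhizotrons and 94.6, 95.9 and 109 TPM after transplanting. These exceeded the meristems of the same cultivation by 1.23-fold, 2.09-fold and 1.65-fold, without overlap. Medium normal lateral roots had 107, 95.5 and 97.2 TPM in containers and 129.7, 125 and 128 TPM in rhizotrons, 1.42-fold and 1.86-fold above the meristems and again apart. On the log2 CPM scale of the test, long and medium normal pairs differed by 0.15 and 0.20 in containers and by 0.73 and 0.63 in rhizotrons. With limma on log2(TPM + 1) the log2 fold change of the whole comparison was 0.56, so that its size depends on the scale. In long dying container roots the lateral roots, with 94.3, 94.6 and 92.0 TPM, overlapped with the meristems, and their log2 CPM was lower by 0.14. Medium thick dying transplanted lateral roots had 101, 94.1 and 99.7 TPM, a 1.38-fold higher TPM than the meristems but the same level in log2 CPM with TMM factors (difference 4e-04). Lateral roots were lower in *CERD* than the elongation zone of the same class (log2 fold change -0.30, SE 0.034, adjusted p = 1.9e-09, 54.2% of genes passed), lower in all 7 pairs in log2 CPM and in 6 in TPM. The exception in TPM was the long normal rhizotron class, at 1.07-fold higher in lateral roots. These 3 comparisons of Dataset 2 share libraries and are not independent of each other. After merging, the log2 fold changes were 0.38 (adjusted p = 7.5e-04) and -0.30 (adjusted p = 0.0025).

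In Dataset 1, which has no elongation zones, lateral roots held 91.7 ± 27.0 TPM and meristems 58.8 ± 16.1 TPM (mean ± SD, 24 libraries each). The log2 fold change was 0.57 (SE 0.076, adjusted p = 6.5e-09), with 72.9% of 26981 genes passing, and *CERD* was higher in lateral roots in all 8 pairs. After merging the adjusted p was 3.5e-06. The ranges were apart in 5 of the pairs. Medium thick rhizotron lateral roots, at a mean of 40.5 TPM, had no matched meristems and did not enter this comparison. At 7 weeks, long container lateral roots had 89.4, 87.8 and 68.3 TPM, against 81.7, 69.6 and 42.7 TPM in the meristems, whose range reached into that of the lateral roots. Medium ones had 58.2, 60.6 and 65.7 TPM, above the 37.5, 50.9 and 27.9 TPM of the meristems. At 8 weeks, long container roots overlapped, with 59.0, 78.3 and 65.5 TPM in lateral roots and 50.4, 63.8 and 77.8 TPM in meristems. Long rhizotron roots differed most, 2.18-fold, with 101, 100.2 and 115 TPM in lateral roots and 44.0, 48.0 and 53.2 TPM in meristems. Medium normal roots had 70.0, 86.0 and 75.9 TPM in container lateral roots and 39.4, 58.4 and 59.1 TPM in container meristems, which were apart. In rhizotrons the values were 70.5, 74.9 and 112 TPM and 72.1, 64.7 and 40.7 TPM, which overlapped because 1 lateral-root library was lower than the highest meristem library. Thick container lateral roots had 111, 112 and 113 TPM, above the 66.2, 86.1 and 47.9 TPM of thick container meristems. In the summer-sown container class the meristems had 73.1, 78.5 and 77.3 TPM, 1.86-fold below the lateral roots that top the dataset.

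Expected count divided by TPM follows the mean effective length of the transcripts of a gene, weighted by their abundance, and is a readout that the count tests do not use. Relative to 5180 well-expressed genes and scaled to a mean of 1, it lay between 0.990 and 1.01 in all libraries for *CERD*. Lateral roots differed from meristems by -0.061% in Dataset 1 and by -0.34% in Dataset 2, elongation zones from meristems by -0.11%, and lateral roots from elongation zones by -0.22%. None of these passed an exact two-sided sign-flip test over the matched pairs after adjustment over the 4 comparisons, with adjusted p of 0.53, 0.094, 0.48 and 0.094. Calibrated on more abundant genes, 3 of the 4 differences changed sign. The smallest unadjusted p that such a test allows is 0.0078 with 8 pairs and 0.016 with 7. A change in the mix of transcripts between root parts was thus not detectable by length, and a change between transcripts of equal length would not show.

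With taproot length, *CERD* rose in containers of Dataset 1 and had no common direction over the cultivations of Dataset 2. Long taproot meristems of Dataset 1 held 64.3 ± 15.3 TPM and short ones 39.5 ± 6.22 TPM (mean ± SD, 6 libraries each, log2 fold change 0.59, SE 0.19, adjusted p = 0.031), where 30.9% of 23438 genes passed. Short meristems had 39.4, 45.9 and 31.0 TPM at 7 weeks and 43.3, 44.4 and 33.01 TPM at 8 weeks. The values of long meristems, given above, overlapped with them at 7 weeks, through the third library, and were apart at 8 weeks. The call was lost whichever replicate number was left out (adjusted p of 0.062 to 0.14), after merging (adjusted p = 0.053) and without the pair at 7 weeks, whose labels conflict (log2 fold change 0.53, adjusted p = 0.061). Medium against short meristems gave 0.15 (SE 0.17, adjusted p = 0.71). In that comparison edgeR called 0 of 22460 genes, although 3458 had an unadjusted p under 0.05, while DESeq2 called 667 and limma 1. Long against medium meristems gave 0.21 (adjusted p = 0.71, 0.0249% of genes passed), and -0.0096 without the pair at 7 weeks. Long against medium lateral roots gave 0.074 (adjusted p = 0.64, 4.63% passed), with 2 of the 3 pairs higher.

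In Dataset 2 the cultivations went apart. In containers the short meristems that end the order, at 39.3, 41.7 and 30.1 TPM, lay below medium ones by 1.90-fold and below long ones by 2.18-fold, without overlap. In transplanted seedlings the short meristems held 108, 112 and 111 TPM, the highest of the 3 lengths, above medium ones with 68.7, 69.2 and 68.0 TPM and above the long ones. In rhizotrons short meristems had 58.5, 53.4 and 56.3 TPM, which overlapped with the long ones and lay below the medium ones. Over the 3 cultivations the log2 fold change was -0.083 for long against short (SE 0.16, adjusted p = 0.81, 2.12% of genes passed) and 0.038 for medium against short (SE 0.14, adjusted p = 0.89, 2.87% passed). Long against medium gave -0.12 in meristems (adjusted p = 0.31, 3.16% passed), -0.16 in elongation zones (adjusted p = 0.23, 5.22% passed) and -0.13 in lateral roots (adjusted p = 0.16, 20.5% passed). None of the 3 passed, and each passed when all groups of the dataset were fitted together (adjusted p of 0.033, 0.037 and 0.047). In each part the long roots of rhizotrons were lower than the medium ones without overlap, by a ratio of 0.78 in meristems, 0.75 in elongation zones and 0.87 in lateral roots. In meristems the transplanted pair was also lower without overlap, at 0.88.

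**Figure D3:**
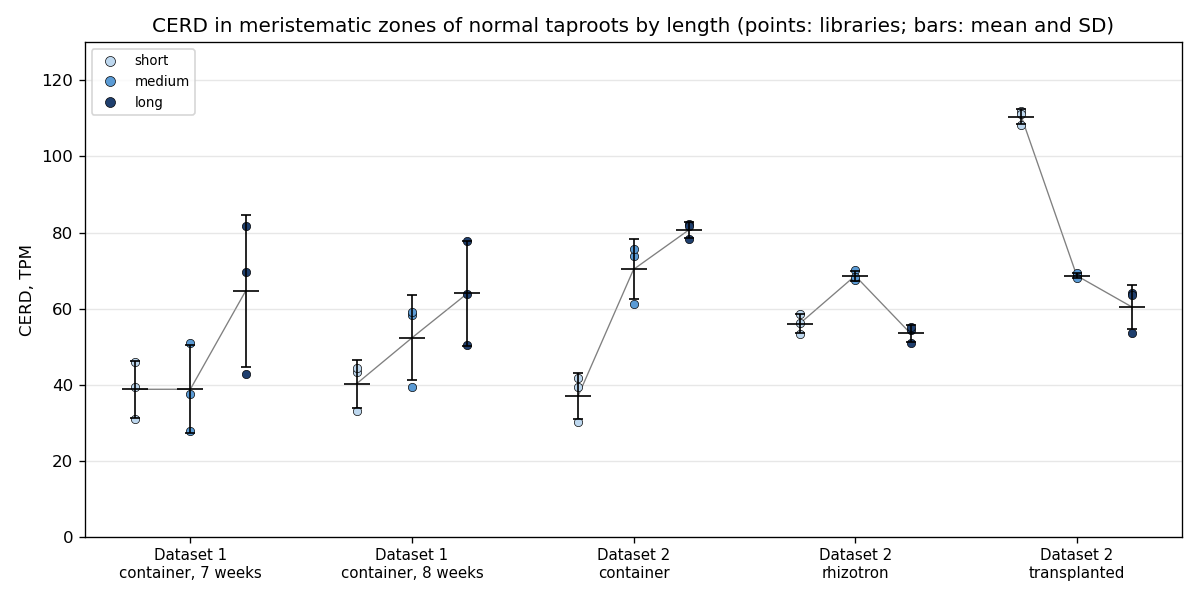
Level of *CERD* in TPM (vertical axis, from 0) in meristematic zones of short, medium and long normal taproots in 5 sets of matched groups; points are libraries, bars the mean and SD (n = 3). Short taproots are lowest in the container sets, or level with medium ones, with means of 37.0 to 40.2 TPM, and highest in the transplanted set, with 110.5 TPM.

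In long dying taproots of Dataset 2, *CERD* was higher in the meristem than in active ones, and over 4 pairs of dying elongation zones it was lower on average. Medium thick dying meristems, at 1.04 times the normal ones after transplanting and 0.93 times in rhizotrons, did not pass and are described below with thick roots. Dying long meristems held 112 ± 20.8 TPM and active ones 70.5 ± 11.8 TPM (mean ± SD, 6 libraries each, log2 fold change 0.55, SE 0.13, adjusted p = 0.0036, 49.9% of 24908 genes passed). Dying container meristems, with 90.0 to 98.5 TPM, lay above active ones with 78.2 to 82.2 TPM, a ratio of 1.15. Transplanted meristems coded as dying were 2.16-fold higher than active ones, at 129 to 133 TPM against 53.7 to 64.0 TPM. The label conflict touches the latter group, and in containers alone the log2 fold change was 0.15 (SE 0.050, adjusted p = 0.015, 61.4% of genes passed). The 3 libraries of each of these container groups merge into 1 as near-identical, so that this fit could not be repeated after merging. For both cultivations together, merging left 2 dying libraries and an adjusted p of 0.14. *PIN2* had a mean of 6.93 TPM in the dying container meristems against 32.9 TPM in the active ones, and its part in the difference was not tested.

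Elongation zones of dying taproots were compared with active ones of the same thickness in 4 pairs, and *CERD* fell (log2 fold change -0.24, SE 0.073, adjusted p = 0.011, 40.9% of 26147 genes passed). Dying medium rhizotron elongation zones were the lowest of that zone, with 81.5, 80.7 and 75.9 TPM (79.3 ± 3.04), 0.57 times the active ones. Dying long container elongation zones lay below active ones without overlap, at a ratio of 0.90. Dying long transplanted zones overlapped with active ones, at a ratio of 1.08. Medium thick transplanted zones had 100.3, 124 and 122 TPM when active, and their range overlapped with that of the thick dying ones. The fall was lost without replicate 2 (adjusted p = 0.18), without replicate 3 (adjusted p = 0.090) and after merging (adjusted p = 0.60). Container lateral roots classed as dying had a log2 fold change of -0.14 (SE 0.039, adjusted p = 0.011, 30.5% of genes passed), at 93.7 ± 1.39 against 99.4 ± 1.81 TPM, but 0.042 when scaled to the reference genes *UBQ* and *EF*. That call was also lost without replicate 2 or 3 (adjusted p of 0.15 and 0.13) and after merging (adjusted p = 0.55).

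The effect of dying differed between the zones in the 4 long container and transplanted pairs. The interaction, elongation minus meristematic zone, was -0.60 (SE 0.15, adjusted p = 0.0056), and 25.2% of 26130 genes passed. Without the pair of transplanted meristems, whose labels conflict, it was -0.22 (adjusted p = 0.25). That fit kept the transplanted elongation zones, so it set container meristems against elongation zones of both cultivations. In log2 CPM the container pairs differed by 0.16 in meristems and by -0.28 in elongation zones, and the transplanted elongation pair by 0.11. The interaction within containers alone was not tested. The call of the interaction was also lost without replicate 2 (adjusted p = 0.11), without replicate 3 (adjusted p = 0.067) and after merging (adjusted p = 0.58). In Dataset 1 the dying meristems did not pass (log2 fold change -0.077, SE 0.15, adjusted p = 0.78, 10.2% of genes passed), and all 3 pairs overlapped. Long dying container meristems had 50.9, 45.0 and 54.0 TPM at 7 weeks and 46.6, 50.5 and 52.3 TPM at 8 weeks, 0.77 and 0.78 times the active ones. Medium dying rhizotron meristems had 72.3, 57.8 and 71.5 TPM, 1.14 times the active ones. The pair at 8 weeks holds libraries that were near-identical to long normal rhizotron taproots, and without that pair the log2 fold change was -0.0099. *PIN2* split the libraries of that dying group, at 6.18 TPM in library 1 against 70.1 and 72.9 TPM, and its part in the values was not tested.

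Thick roots did not differ from normal ones past the threshold in any of the 3 comparisons of *CERD*. In the comparison of Dataset 2 the thick taproots were also dying, so that thickness and dieback cannot be told apart there. Meristems of thick dying taproots in Dataset 2 gave 0.13 against normal ones (SE 0.068, adjusted p = 0.12, 60.9% of 24583 genes passed). Their values were 62.4, 64.3 and 64.0 TPM in rhizotrons, slightly below the normal ones without overlap, while the transplanted ones overlapped with the normal ones. In log2 CPM the picture turned, since the rhizotron pair overlapped (-0.048) and the transplanted one was higher by 0.29 without overlap. Thick meristems of Dataset 1 gave 0.13 (SE 0.093, adjusted p = 0.26, 45% passed). Summer-sown thick meristems had 85.3, 82.3 and 79.8 TPM in containers and 60.9, 63.3 and 63.8 TPM in rhizotrons, against 60.8, 59.3 and 59.7 TPM in normal rhizotron meristems. They exceeded the normal ones by 1.08-fold and 1.05-fold in TPM without overlap, but in log2 CPM the container pair differed by -0.080. Mean *PIN2* was 21.4 TPM in thick and 35.3 TPM in normal summer-sown container meristems, and 14.2 and 48.3 TPM in the rhizotron ones. In medium container meristems it was 16.3 TPM in thick and 43.7 TPM in normal ones, and the part of *PIN2* was not tested. Thick against normal lateral roots gave 0.051 (SE 0.14, adjusted p = 0.83, 21.5% passed), from pairs that went apart. In containers thick lateral roots were 1.45-fold above normal ones, and in rhizotrons they had 39.4, 33.6 and 48.4 TPM, 0.47 times the normal ones but lower by 0.34 on the log2 CPM scale. The thick rhizotron lateral roots stand apart from all groups, since 3 genes took 42.7% of their counts on average, and by log2 CPM with TMM factors they ranked 11 of 25 rather than 22. Without them (this omission was chosen with the values known), the container pair gave a log2 fold change of 0.46 (SE 0.073, adjusted p = 0.0051, 29.2% of genes passed). That fit was not repeated with near-identical libraries merged, which would leave 1 thick library and 2 normal ones.

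Between rhizotrons and containers, *CERD* passed the test in 1 of 5 comparisons, the lateral roots of Dataset 2. There it was higher in rhizotrons (log2 fold change 0.28, SE 0.066, adjusted p = 0.0091, 29.9% of 24956 genes passed), by 1.12-fold in long and 1.28-fold in medium roots, both without overlap. That call was lost without replicate 2 or 3 (adjusted p of 0.11 and 0.12) and after merging (adjusted p = 0.50). *PIN2* moved with the contrast, with means of 31.0 and 26.8 TPM in long and medium container roots against 23.0 and 8.80 TPM in rhizotron ones. Among the medium container libraries, the one with 8.39 TPM of *PIN2* had 107 TPM of *CERD*, and those with 34.8 and 37.1 TPM had 95.5 and 97.2 TPM. The part of *PIN2* in the difference was not tested. Lateral roots of Dataset 1 gave 0.0099 (adjusted p = 0.97, 21.3% of genes passed), and 0.33 without the thick pair (SE 0.097, adjusted p = 0.033, 19.9% passed). The latter fit was not repeated with near-identical libraries merged. Long lateral roots were there 1.56-fold higher in rhizotrons, without overlap, and medium normal ones overlapped at 1.11-fold. The thick ones were at 0.36 times the container level in TPM, but lower by 0.66 on the log2 CPM scale. Meristems gave -0.15 in Dataset 1 (adjusted p = 0.27, 16.5% passed), where both summer-sown pairs were lower in rhizotrons without overlap, at ratios of 0.79 and 0.76. In Dataset 2 they gave 0.019 (adjusted p = 0.95, 5.18% passed), with long meristems at 0.66 times and short ones at 1.51 times the container level, both without overlap. Elongation zones gave 0.034 (adjusted p = 0.81, 9.65% passed). Whether the rhizotron effect differed between lateral roots and meristems of Dataset 1 was tested as an interaction of 0.37 (SE 0.19, adjusted p = 0.28, 6.39% passed), which did not pass.

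After transplanting, *CERD* was higher in meristems than in rhizotron-grown seedlings (log2 fold change 0.23, SE 0.074, adjusted p = 0.020, 34.4% of genes passed) and in elongation zones than in container seedlings (log2 fold change 0.29, SE 0.088, adjusted p = 0.025, 36.2% passed). The first difference was largest in short taproots, at 1.97-fold without overlap, while medium normal ones had nearly equal means of 68.7 and 68.6 TPM. On the log2 CPM scale of the test, that medium pair went against the rise, lower by 0.14 without overlap. The second was larger in dying long taproots, at 1.23-fold without overlap, while active ones overlapped at 1.03-fold. Leaving out replicate 1, 2 or 3 ended the first call (adjusted p of 0.053, 0.14 and 0.15), and leaving out replicate 2 or 3 the second (adjusted p of 0.22 and 0.13). Both were lost after merging (adjusted p of 0.18 and 0.70). The second was also lost with library size only (log2 fold change 0.175, adjusted p = 0.088) and with limma on log2(TPM + 1) (0.16, adjusted p = 0.12). Transplanted against container meristems gave 0.32 (SE 0.13, adjusted p = 0.092, 22.6% passed), from 4 pairs that ranged from 0.75 times the container level in long active to 2.99 times in short taproots. The transplanted comparisons share libraries with each other and with those of dieback.

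After summer sowing, *CERD* was higher than after spring sowing in all 3 long normal pairs of Dataset 1 (log2 fold change 0.51, SE 0.099, adjusted p = 8.0e-04, 32% of 25173 genes passed). Lateral roots from containers were 2.10-fold higher and rhizotron meristems 1.24-fold higher, both without overlap, and container meristems 1.19-fold with overlap. The difference kept an adjusted p of 0.0065 to 0.027 under each omission of a replicate number and of 0.030 after merging. The season, the sowing and the harvest cannot be told apart here. Seedlings of 8 and 7 weeks gave a log2 fold change of 0.00043 (SE 0.088, adjusted p = 0.999, 10.7% passed), with 5 of 6 pairs overlapping. The interaction of age with root part was -0.088 (SE 0.24, adjusted p = 0.90, 0.989% passed).

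Of the 33 comparisons, *CERD* passed in 13, of which 6 held whichever replicate number was left out and 5 after merging. The latter were the 4 comparisons of root parts and that of sowing. Long dying meristems of Dataset 2 held under each omission of a replicate number (adjusted p of 0.025 to 0.034) but not after merging.

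**Figure D4:**
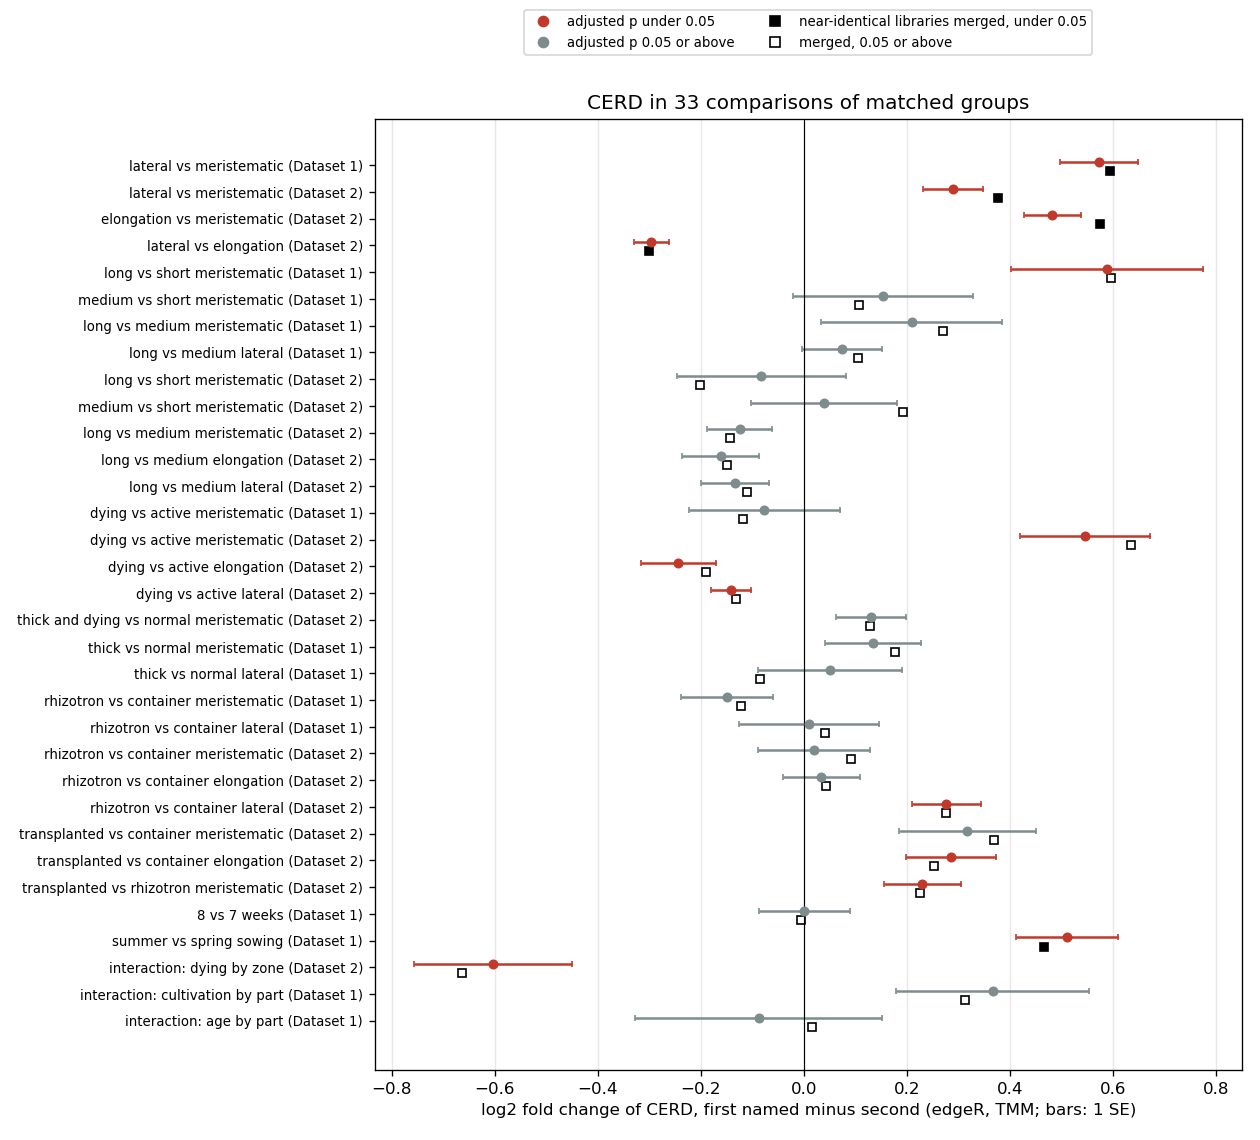
Log2 fold change of *CERD* (horizontal axis; edgeR with TMM factors) in the 33 comparisons; circles with bars are the fit and 1 SE, red where the adjusted p was under 0.05, and squares the fit with near-identical libraries merged, filled where it was under 0.05. The 13 red circles include the 4 comparisons of root parts, from -0.30 to 0.57, and 5 squares are filled.

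The genes most like *CERD* were sought among 22843 genes by the correlation of group means of log2 CPM, over the 25 groups of Dataset 1 and the 30 of Dataset 2. The 5 with the highest value of the lower r were MSTRG.21501 (r = 0.86 in both), MSTRG.14392 (0.88 and 0.86), MSTRG.1127 (0.86 and 0.89), MSTRG.29912 (0.86 in both) and MSTRG.11874 (0.91 and 0.86). MSTRG.21501 ran from 13.6 TPM in short container meristems at 7 weeks to 77.9 TPM in the summer-sown lateral roots, the same ends of the order as *CERD* in Dataset 1. The 3 with the most opposite pattern were MSTRG.4510 (-0.89 and -0.87), MSTRG.10659 (-0.87 and -0.90) and MSTRG.17017 (-0.88 and -0.87). This choice depends on the scale, since on log2(TPM + 1) the weaker r of these 3 was -0.48, -0.34 and -0.39 and they ranked 1168, 2366 and 1900 among the opposite genes. The 5 most alike genes ranked 39, 112, 26, 16 and 2 on that scale, in the order given, with a weaker r of 0.85 to 0.91. The sources give these identifiers no gene name. Of the other RT-qPCR genes, *ACO1*, an oxidase of ethylene synthesis, came closest (0.74 and 0.63), followed by *PCC13*, a desiccation-related gene (0.57 and 0.71). *GST*, a glutathione S-transferase, ran opposite (-0.81 and -0.75), as did *G3OX*, a gibberellin oxidase (-0.63 and -0.70), and *PIN2* (-0.64 and -0.45). *WRKY*, *GERL1* and *ACO5* stayed between -0.018 and 0.27. The reference gene *EF* had r of -0.83 and -0.80 and *UBQ* of -0.40 and -0.63 with *CERD*. On log2(TPM + 1), *UBQ* changed sign in Dataset 1 (0.28 and -0.39). The groups hold unequal numbers of each root part and some near-identical libraries, and these correlations are descriptions only.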

How the data were processed

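Libraries were made with a stranded mRNA kit from root tissue. Per the methods of the study, the authors trimmed reads, discarded ribosomal matches, aligned the remainder to the oak genome (STAR), built a merged transcriptome (StringTie) and estimated gene values by RSEM over Bowtie 2, keeping strand. The deposited expected counts carry no normalization or filter. The deposited TPM values were scaled by the authors to transcript length and library. Expected counts were rounded and used for tests, TPM for levels. Transcript tables and FPKM were not used. Groups follow the sample codes.

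Comparisons paired groups that differ in a single class of the sample code. Morphology and vitality form 1 such class, so that thick dying against normal roots changes both. The tests ran over all genes in edgeR 4.0.16 (R 4.3.3) with filterByExpr at a minimum count of 10, TMM factors, the matched pair in the design of the quasi-likelihood fit and Benjamini-Hochberg adjustment at 0.05. Only *CERD* is reported. Library distances used 5147 genes. Other measures were computed in Python 3.11.15 (pandas 2.3.3, numpy 2.4.6, scipy 1.17.1) and drawn with matplotlib 3.10.9. Named genes were *CERD*, the 5 most and 3 least like it by r of group means of log2 CPM (prior count 1, mean of at least 1 TPM), and the other RT-qPCR and reference genes. The gene, lists and comparisons were chosen with earlier results of these data known. Each comparison was repeated with limma 3.58.1 on log2(TPM + 1), with DESeq2 1.42.0, with library size only, with scaling to *UBQ* and *EF*, with no filter or a mean count of at least 50, with replicate number as a block, in a single fit per dataset, with near-identical libraries merged, and without replicates, pairs with conflicting labels or pairs alike across groups. The omission of thick rhizotron lateral roots was added later. Simulated counts with known changes were used to test the fits.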

Additional observations from a re-analysis of the deposited data

Results flagged for a closer look

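In 7 comparisons, matched pairs of groups moved *CERD* in opposite directions, with the libraries of both groups apart in TPM as well as in log2 CPM, and the difference between these pairs was not tested. The values are log2 ratios of mean TPM of 3 against 3 libraries. Long against short taproot meristems of Dataset 2 gave 1.12 in containers and -0.87 in transplanted seedlings, and medium against short ones gave 0.93 and -0.69. Long against medium meristems gave 0.20 in containers and -0.36 in rhizotrons. Rhizotron against container meristems of Dataset 2 gave 0.60 in short and -0.59 in long taproots, and transplanted against container meristems gave 1.58 in short and -0.42 in long ones. These 5 comparisons share groups, and the short container and short transplanted meristems enter most of them. In lateral roots of Dataset 1, thick against normal roots gave 0.54 in containers and -1.09 in rhizotrons, and rhizotron against container roots gave 0.64 in long normal and -1.47 in medium thick roots. The thick rhizotron lateral roots, in which 3 genes took 42.7% of the counts, enter both. In log2 CPM they differed by -0.34 from normal rhizotron and by -0.66 from thick container lateral roots. By TPM alone, lateral roots against elongation zones also went both ways, at 0.10 in long normal rhizotron roots and from -0.28 to -0.094 in 5 other pairs without overlap, but by log2 CPM the former pair was lower as well (-0.070).

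The effect of dying differed between elongation and meristematic zones of Dataset 2 by a test of the difference itself, with an interaction of -0.60 (edgeR, adjusted p = 0.0056). The transplanted meristems whose code and description conflict enter this value. The fit without them, given above, did not pass, but it did not hold the same cultivations in both zones.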

How the results depend on the processing

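Log2 fold changes are given first and adjusted p in parentheses. DESeq2 and the omission of the low-count filter each kept all 13 calls, and changed the sign only of the difference between 8 and 7 weeks, to -0.016 and -0.012. A mean count of at least 50 also kept them and turned rhizotron effects in lateral roots of Dataset 1 (-0.00054) and meristems of Dataset 2 (-0.0039). With library size only, 11 calls held. Lost were dying lateral roots at -0.096 (0.089) and transplanted elongation zones at 0.175 (0.088), and sign changed for long against short of Dataset 2 (0.0013), thick lateral roots (-0.21) and rhizotron effects in lateral roots of Dataset 1 (-0.18), meristems of Dataset 2 (-0.016) and elongation zones (-0.0011). Limma on log2(TPM + 1) lost the same calls, at -0.084 (0.11) and 0.16 (0.12), and turned these results, in the same order, to 0.062, -0.26, -0.23, -0.0054 and -0.0057, and thick dying meristems to -0.030. Scaling to *UBQ* and *EF* turned dying lateral roots (0.042), long against short of Dataset 2 (0.034), rhizotron meristems of Dataset 2 (-0.076) and age (-0.016). It made calls of long against medium lateral roots of Dataset 2 at -0.20 (0.036), thick dying meristems at 0.54 (1.1e-05) and thick meristems at 0.27 (0.045). That scaling moved the median of all genes by -0.55 to 0.49, over 0.1 in 18 comparisons, and library size only by -0.25 to 0.16, over 0.1 in 8. Under it, *CERD* differed by 1.04 and 0.72 between lateral roots and meristems of Datasets 1 and 2 and by 0.92 between the zones, where the median gene moved by 0.47, 0.43 and 0.43. A single fit per dataset added long against medium meristems at -0.13 (0.033), elongation zones at -0.15 (0.037) and lateral roots at -0.13 (0.047), thick dying meristems at 0.12 (0.032) and transplanted against container meristems at 0.32 (6.6e-11), and lost dying lateral roots at -0.14 (0.38). Merging near-identical libraries, which leaves fewer samples, lost 8 calls: long against short of Dataset 1 at 0.60 (0.053), dying meristems at 0.64 (0.14), elongation zones at -0.19 (0.60) and lateral roots at -0.13 (0.55), rhizotron lateral roots at 0.28 (0.50), transplanted elongation zones at 0.25 (0.70), transplanted against rhizotron meristems at 0.23 (0.18) and the interaction of dying at -0.66 (0.58). It turned thick lateral roots (-0.084), age (-0.0062) and age by part (0.015). Without pairs with conflicting labels, long against short of Dataset 1 was 0.53 (0.061), the interaction of dying -0.22 (0.25), long against medium meristems of Dataset 1 -0.0096 and dying meristems of Dataset 1 0.022. That fit of the interaction held container meristems only but elongation zones of both cultivations. Without thick rhizotron lateral roots, thick lateral roots were 0.46 (0.0051) and rhizotron lateral roots of Dataset 1 0.33 (0.033). Neither of these fits was repeated with near-identical libraries merged. Without pairs alike across groups, no call changed in the 7 comparisons that hold such pairs. The cause of these changes was not tested.

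Without 1 replicate number, ranges that lost a call or changed sign were 0.50 to 0.71 for long against short of Dataset 1, -0.30 to -0.20 for dying elongation zones, -0.17 to -0.13 for dying lateral roots, 0.27 to 0.29 for rhizotron lateral roots of Dataset 2, 0.22 to 0.34 for transplanted elongation zones, 0.21 to 0.28 for transplanted against rhizotron meristems and -0.64 to -0.55 for the interaction of dying. They were -0.018 to 0.11 for thick lateral roots, -0.079 to 0.11 and -0.048 to 0.055 for rhizotron lateral roots of Dataset 1 and meristems of Dataset 2, -0.11 to 0.094 for age and -0.36 to 0.24 for age by part. The block for replicate number changed no call (elongation against meristematic zone 0.48, adjusted p = 8.0e-10). Deviations of same-numbered libraries of matched groups correlated at -0.17 to 0.23 (median 0.0011). In 0 of 33 comparisons was every correlation over 0.1. Lateral roots against meristems of Dataset 1 had only positive mean correlations per pair, from 0.0081 to 0.22. In Dataset 2 that comparison ran from -0.028 to 0.15. Elongation against meristematic zones ran from -0.032 to 0.23, and lateral roots against elongation zones from -0.0095 to 0.21. Whether same-numbered libraries of different root parts came from the same seedlings was not tested. With library size only, the SD of group means was 0.48 in Dataset 1 and 0.41 in Dataset 2, and by CPM the groups of Dataset 2 spanned 2.71-fold. The difference in implied length, calibrated on genes with at least 1000 counts and 50 TPM, was 0.31% and 0.074% between lateral roots and meristems of Datasets 1 and 2 and 0.13% between zones, none past the test, and without 1 replicate number it was -0.13% to 0.055% for lateral roots of Dataset 1. Without replicate 3, the r of the 5 genes most like *CERD* was 0.78 to 0.83 in the weaker dataset, and on log2(TPM + 1) the 3 opposite genes had -0.34 to -0.48, no longer the most opposite ones.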
